A study of Mus musculus with 25 samples.

Results

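The 31 genes described here are best known from the striatum, the subcortical nucleus that lies directly beneath the neocortex, and were measured in 25 libraries that the study design calls cortical. They were taken by symbol from the table of gene levels, which lists 54532 genes; all 31 were found, and all 31 were among the 16450 genes that reached 0.5 FPKM (fragments normalised to gene length and library depth) in at least 5 libraries. The members were chosen by known striatal expression and by levels in these same libraries that move together from mouse to mouse, so that covariation is given as a description, without a test.

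Each library came from 1 mouse, and there were 5 mice in each of 5 groups. WT_Veh mice were wild type and given vehicle, WT_HighP mice were wild type and given the high dose of P, and the AD_Veh, AD_LowP and AD_HighP mice carried 5xFAD and were given vehicle, the low dose or the high dose of P. P is a natural product derivative that the labels do not name further. 5xFAD mice express human transgenes with familial Alzheimer's disease mutations from Thy1 promoter sequences, which are active in neurons. The sources used here do not give doses, duration, age, sex, strain or litter, and the sample labels give the tissue as brain where the design text says cortex.

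Most striatal neurons are GABAergic medium spiny projection neurons. One population expresses the dopamine receptor Drd1 with the peptides dynorphin and substance P, the other the receptor Drd2 with enkephalin and the adenosine receptor Adora2a. In both, receptors act on adenylyl cyclase 5 and so on cyclic AMP, protein kinase A and the phosphatase inhibitor DARPP-32 (Ppp1r1b): Drd1 and Adora2a stimulate the cyclase through the olfactory-type G protein, and Drd2 inhibits it through inhibitory G proteins. Phosphodiesterases end the signal. A small population of cholinergic interneurons supplies the striatum with acetylcholine. The neocortex expresses many of these genes at lower levels, in some deep-layer neurons and in interneurons. In bulk tissue, fewer cells of a type and less RNA per cell cannot be told apart.

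The stretch before the start site is shown for 4 genes that moved together from mouse to mouse although they mark different striatal neurons: Drd1 and Tac1 belong to the first population, Drd2 and Gpr6 to the second. Each is the 250 bases upstream of a RefSeq start on GRCm38.p6, at chr13:54055659-54055908 (minus strand), chr9:49340153-49340402 (plus strand), chr6:7554811-7555060 (plus strand) and chr10:41072291-41072540 (minus strand), printed 5′ to 3′ in the direction of transcription. Capitals mark every match, on either strand, to 4 motifs. The GC box was searched as GGGCGG. The core of the cyclic AMP response element was searched as TGACG. The core bound by MEIS factors, to which the member Meis2 belongs, was searched as TGACAG. The TATA box was searched as TATAAA.
Drd1: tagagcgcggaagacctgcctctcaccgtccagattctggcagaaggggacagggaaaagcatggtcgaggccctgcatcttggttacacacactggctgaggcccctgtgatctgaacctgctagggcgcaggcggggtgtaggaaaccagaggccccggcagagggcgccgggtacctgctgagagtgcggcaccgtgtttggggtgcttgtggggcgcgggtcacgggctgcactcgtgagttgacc
Drd2: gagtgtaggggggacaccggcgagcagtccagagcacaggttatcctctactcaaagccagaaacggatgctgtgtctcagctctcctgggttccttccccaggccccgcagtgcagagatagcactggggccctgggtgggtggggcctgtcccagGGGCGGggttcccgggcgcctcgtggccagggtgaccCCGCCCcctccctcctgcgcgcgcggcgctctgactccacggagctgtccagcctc
Tac1: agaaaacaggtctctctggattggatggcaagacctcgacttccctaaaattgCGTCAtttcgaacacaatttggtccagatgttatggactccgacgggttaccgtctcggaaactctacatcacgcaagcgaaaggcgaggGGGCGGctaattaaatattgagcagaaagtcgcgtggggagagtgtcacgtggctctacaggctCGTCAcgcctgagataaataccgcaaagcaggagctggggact
Gpr6: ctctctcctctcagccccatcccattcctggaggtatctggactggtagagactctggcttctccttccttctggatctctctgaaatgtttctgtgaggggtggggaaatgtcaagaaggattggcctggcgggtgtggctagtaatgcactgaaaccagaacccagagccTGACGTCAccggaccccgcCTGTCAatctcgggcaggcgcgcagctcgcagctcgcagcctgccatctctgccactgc
Drd1 had none of the 4 motifs in this window, although the window of a further RefSeq start, at chr13:54054781-54055030 on the minus strand, holds a GC box; Drd2 had the GC box on both strands, Tac1 had a GC box and the response element core at 2 places, and Gpr6 had that core on both strands, overlapping as a full palindrome, beside a MEIS core. RefSeq windows were matched for 23 of the 31 members, 30 windows in all. The GC box occurred in 15 of these (50%) against 32.7% of 32851 windows of the same length over all genes, the response element core in 6 (20%) against 17.8%, the MEIS core in 4 (13.3%) against 15.9% and the TATA box in 3 (10%) against 12.4%. Members' windows had a median GC content of 61.4% and 15 CpG dinucleotides, against 52.4% and 6 over all windows. A match is a description of the letters and no site of binding.

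Libraries held 15518358 to 17698222 reads assigned to genes, and no pair of libraries of the same group was alike within counting noise. A defining cortical marker was present in all of them: Slc17a7, the vesicular glutamate transporter of cortical excitatory neurons, ranged from 124 to 372 FPKM. Summed levels of 10 microglial genes were 234 to 401 FPKM in the 15 5xFAD libraries and 85.8 to 123 FPKM in the 10 wild-type libraries, without overlap. Ttr, a choroid plexus transcript, exceeded 100 FPKM in 4 libraries, at 671 and 820 FPKM in WT_HighP mice 1 and 2 and at 788 and 484 FPKM in AD_HighP mice 1 and 4. The latter pair were also the lowest of their group in the striatal index described below.

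The dopamine receptors set the pattern. Levels of Drd1, which raises cyclic AMP, were 6.75, 28.9, 12.7, 58.2 and 37.4 FPKM in WT_Veh mice 1 to 5 and 31.03, 20.6, 19.5, 5.23 and 7.82 FPKM in the WT_HighP mice. In the 5xFAD mice they were 9.47, 24.8, 15.03, 28.3 and 29.5 FPKM on vehicle, 32.4, 30.1, 8.43, 4.98 and 1.896 FPKM on the low dose and 3.12, 5.27, 17.2, 2.03 and 8.06 FPKM on the high dose. All 5 groups overlapped, and the highest library, WT_Veh mouse 4, was 30.7 times the lowest, AD_LowP mouse 5. Drd2, which lowers cyclic AMP, was at 11.03, 48.5, 11.8, 97.8 and 58.2 FPKM in WT_Veh mice and 58.2, 41.01, 42.9, 5.47 and 9.56 FPKM in WT_HighP mice. Its levels in 5xFAD mice were 14.1, 39.1, 23.6, 38.8 and 36.1 FPKM on vehicle, 34.5, 34.2, 11.5, 4.14 and 0.526 FPKM on the low dose and 0.611, 6.15, 28.1, 0.819 and 8.98 FPKM on the high dose. The same libraries stood at both ends as for Drd1, and the span was wider, 186-fold. The lowest Drd2 value rests on 23 reads and the highest on 4211.

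Adora2a, the adenosine receptor that opposes Drd2 in the same neurons, was at 16.5, 36.7, 14.6, 51.1 and 36.4 FPKM in WT_Veh and 56.7, 43.6, 38.1, 5.26 and 9.64 FPKM in WT_HighP mice. In AD_Veh, AD_LowP and AD_HighP mice it was at 15.98, 38.8, 21.4, 30.6 and 27.8 FPKM, 26.03, 28.6, 13.04, 6.26 and 0.419 FPKM and 1.85, 6.93, 31.4, 0.908 and 7.41 FPKM. Only AD_HighP mouse 3 reached the AD_Veh range among the high-dose 5xFAD mice. Gpr6, a constitutively active receptor of the Drd2 neurons, averaged 13.5 ± 9.09, 15.4 ± 10.4, 11.4 ± 3.77, 6.43 ± 4.54 and 3.92 ± 3.64 FPKM (mean ± SD, n = 5 mice each) in WT_Veh, WT_HighP, AD_Veh, AD_LowP and AD_HighP, the order kept for the group means below. Across libraries, the ratio of Drd1 to Drd2 lay between 0.454 and 1.20 in 22 libraries and was 3.60, 5.11 and 2.48 in AD_LowP mouse 5 and AD_HighP mice 1 and 4. Those 3 libraries had the fewest Drd2 reads, 23, 25 and 36, and at this low end Drd2 was lower relative to Drd1 than in the other libraries.

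Among the neuropeptides, Penk, which encodes proenkephalin, was at 96.97, 199, 139, 279 and 213 FPKM in WT_Veh and 245, 221, 164, 35.98 and 75.8 FPKM in WT_HighP mice. The 5xFAD mice had 55.9, 190.3, 101, 190.2 and 211 FPKM on vehicle, 194, 148, 51.9, 101 and 10.5 FPKM on the low dose and 12.1, 34.1, 116, 8.65 and 52.2 FPKM on the high dose. Its highest value was the highest of any member, and all groups overlapped. Tac1, which encodes substance P, was at 8.35, 23.6, 10.1, 40.2 and 27.4 FPKM in WT_Veh mice and 21.02, 16.5, 12.9, 3.25 and 5.27 FPKM in WT_HighP mice. In the 5xFAD groups it was at 6.14, 15.03, 12.8, 16.5 and 22.8 FPKM, 23.96, 19.8, 4.52, 3.32 and 1.08 FPKM and 2.27, 4.303, 11.04, 1.98 and 5.51 FPKM, in the order vehicle, low dose, high dose. Tac1 and Drd1 shared their highest and lowest libraries. Pdyn, which encodes prodynorphin, varied least of all members: its lowest library had 37.0% of the level of its highest, and its group means were 18.7 ± 3.12, 17.2 ± 6.08, 19.6 ± 4.53, 16.1 ± 6.33 and 12.9 ± 3.24 FPKM.

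**Figure D1:**
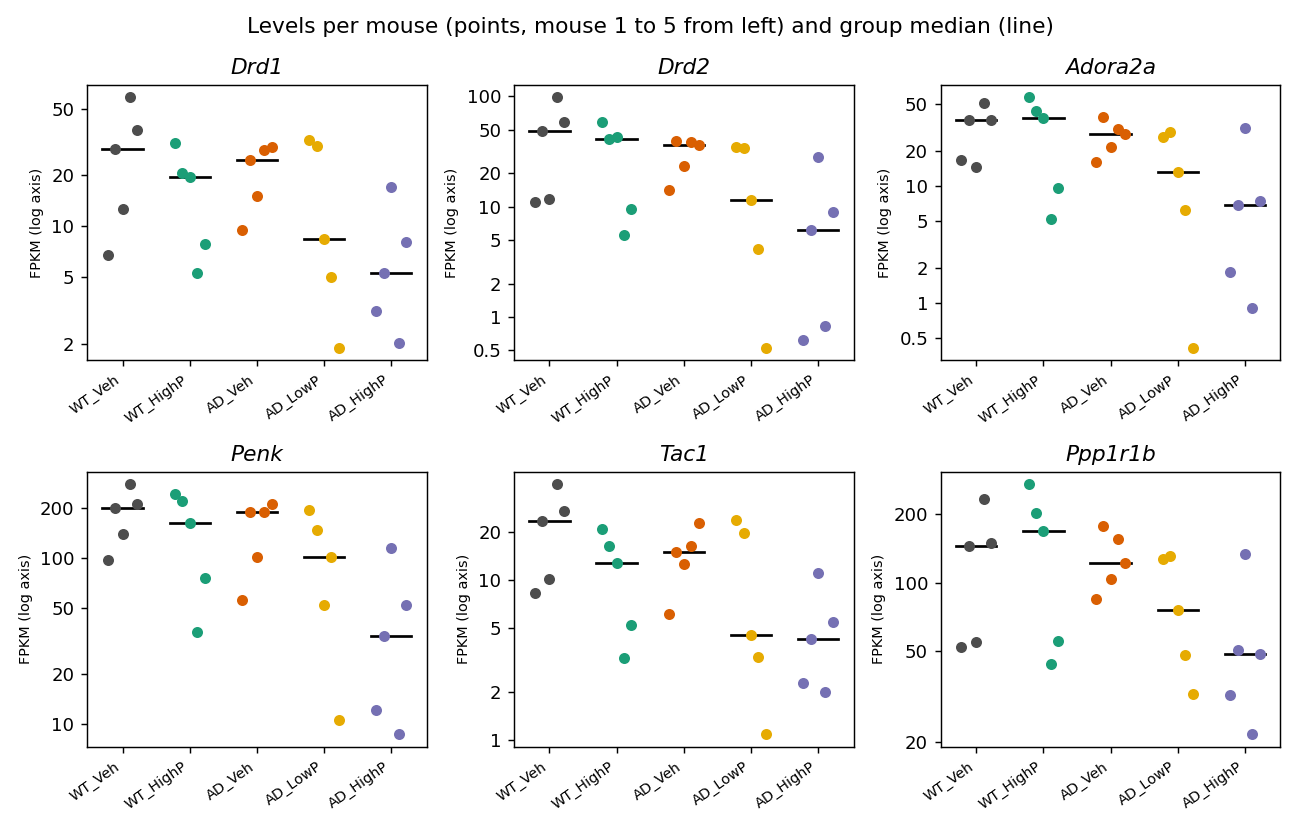
Levels of 6 members in FPKM on log axes; each point is 1 mouse (mouse 1 to 5 from left) and the line is the group median. All 5 groups overlap in each panel, and in AD_HighP mouse 3 stands above the other 4, for example 31.4 FPKM of Adora2a against 7.41 or less.

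Members of the G protein and cyclic nucleotide pathway mostly varied less in relative terms than the receptors, their lowest library having 4.13% to 16.7% of the level of the highest, against 0.538% to 4.55% for the receptors. Ppp1r1b, the DARPP-32 phosphatase inhibitor, was at 52.5, 146, 54.96, 233 and 149.6 FPKM in WT_Veh and 271, 202, 169, 44.1 and 55.7 FPKM in WT_HighP mice. It was at 84.9, 178, 104, 156 and 122 FPKM in AD_Veh, 128, 131, 76.3, 48.2 and 32.5 FPKM in AD_LowP and 32.3, 50.9, 134, 21.6 and 48.6 FPKM in AD_HighP mice. AD_HighP mouse 3 again lay inside the AD_Veh range and its 4 group mates below it. The olfactory-type G protein subunit Gnal averaged 75.1 ± 29.9, 54.1 ± 18.9, 61.97 ± 17.6, 48.1 ± 26.8 and 33.6 ± 11.5 FPKM in the 5 groups. Its partner Gng7, a G protein gamma subunit, averaged 117 ± 61.1, 97.1 ± 51.7, 88.4 ± 23.3, 59.99 ± 37.6 and 42.8 ± 23.9 FPKM. Adcy5, the adenylyl cyclase they act on, averaged 93.1 ± 37.4, 95.02 ± 45.9, 79.3 ± 20.1, 55.9 ± 22.7 and 43.3 ± 21.6 FPKM. These 3 form 1 signalling step, and each was lowest on average in the AD_HighP mice, as was every other member.

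The phosphodiesterase Pde10a, which degrades both cyclic nucleotides, averaged 57.3 ± 45.4, 39.4 ± 24.7, 43.7 ± 14.2, 28.98 ± 25.4 and 15.4 ± 12.7 FPKM, and the calmodulin-dependent Pde1b averaged 91.2 ± 46.7, 77.8 ± 38.02, 74.2 ± 18.4, 59.02 ± 30.999 and 40.1 ± 17.1 FPKM. Pde1b and Gng7 were the most tightly joined of the 465 member pairs. Rgs9, which speeds the end of G protein signals, averaged 18.6 ± 12.8, 14.9 ± 10.1, 14.7 ± 4.78, 8.92 ± 7.42 and 5.103 ± 5.13 FPKM. Rasd2, a small GTPase also called Rhes, averaged 98.6 ± 66.1, 82.3 ± 42.2, 81.3 ± 18.03, 56.3 ± 31.4 and 42.3 ± 20.4 FPKM, and Rasgrp2, an exchange factor for Rap GTPases, 5.37 ± 3.08, 5.099 ± 2.64, 4.63 ± 1.24, 2.89 ± 1.55 and 2.39 ± 1.38 FPKM. For Rgs9 and Pde10a the SD came close to the mean in both treated 5xFAD groups, where some mice had AD_Veh levels and others far less.

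Cholinergic genes were low but followed the same mice. Chat, the enzyme that makes acetylcholine, averaged 1.79 ± 1.22, 1.43 ± 1.16, 1.77 ± 1.02, 1.05 ± 1.16 and 0.473 ± 0.652 FPKM. Its lowest libraries, AD_HighP mice 1 and 4, held 1 read each, and its highest, WT_Veh mouse 4, held 281. Slc5a7, the choline transporter, averaged 3.64 ± 2.85, 1.57 ± 1.21, 3.03 ± 1.83, 2.09 ± 2.41 and 0.745 ± 0.698 FPKM, and Slc10a4, a synaptic vesicle protein of cholinergic neurons, 3.79 ± 2.58, 2.54 ± 1.91, 2.23 ± 1.21, 1.45 ± 1.69 and 0.612 ± 0.881 FPKM. Slc10a4 was at 0 reads in AD_HighP mouse 1, so that WT_Veh mouse 4 was at least 85.9-fold higher, taking 3 reads as the floor of that library. All 3 are also made by cholinergic neurons of the basal forebrain.

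The transcription factor Isl1, needed for striatal and cholinergic neuron development, averaged 1.22 ± 0.729, 0.849 ± 0.689, 0.94002 ± 0.335, 0.633 ± 0.712 and 0.231 ± 0.285 FPKM and was at 0 reads in AD_LowP mouse 5 and AD_HighP mouse 4. Rarb, a retinoic acid receptor, averaged 2.76 ± 1.697, 2.51 ± 1.29, 2.42 ± 0.735, 1.42 ± 0.933 and 1.12 ± 0.597 FPKM. Meis2, a homeobox factor, averaged 16.7 ± 6.58, 13.5 ± 4.88, 13.4 ± 3.701, 10.6 ± 5.84 and 7.42 ± 2.61 FPKM and had the second flattest course after Pdyn, its lowest library being at 21.2% of its highest. Scn4b, a sodium channel beta subunit, averaged 124 ± 107, 93.2 ± 51.1, 104 ± 21.2, 66.6 ± 51.9 and 51.2 ± 33.9 FPKM. Actn2, a cytoskeletal actinin of dendritic spines, averaged 10.2 ± 6.67, 7.58 ± 4.26, 8.22 ± 3.26, 5.13 ± 3.35 and 3.15 ± 2.25 FPKM and Syndig1l, a gene related to a synapse differentiation factor, 24.4 ± 17.3, 24.8 ± 17.5, 19.4 ± 6.16, 10.9 ± 8.08 and 6.42 ± 7.66 FPKM.

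Of the other 6 members, Lrrc10b was the most abundant, with group means of 47.997 ± 36.5, 56.6 ± 41.5, 38.5 ± 13.7, 20.6 ± 14.8 and 13.6 ± 16.1 FPKM. The group means of Sh3rf2 were 4.29 ± 3.08, 3.03 ± 2.21, 3.45 ± 1.35, 1.98 ± 1.94 and 0.802 ± 0.911 FPKM and those of Slc35d3, a transporter family member, 5.82 ± 3.84, 6.403 ± 4.299, 4.64 ± 1.66, 3.22 ± 2.701 and 1.72 ± 1.68 FPKM. Strip2 had 9.14 ± 4.45, 6.68 ± 3.01, 9.11 ± 2.81, 6.89 ± 3.92 and 4.58 ± 1.699 FPKM. Ido1, the enzyme that opens the ring of tryptophan, had 2.46 ± 1.91, 1.23 ± 0.925, 1.89 ± 0.842, 1.62 ± 1.65 and 0.597 ± 0.6505 FPKM. Cd4, best known as the coreceptor of helper T cells, had 5.57 ± 5.06, 3.45 ± 2.47, 4.45 ± 1.63, 2.48 ± 2.62 and 1.41 ± 1.62 FPKM and followed the striatal genes. The T cell genes Cd3e, Cd3d, Cd3g, Cd8b1 and Cd2 stayed under 0.5 FPKM in all 25 libraries, and Cd3e did not exceed 0.123 FPKM. The other 3 T cell genes reached 0.660 FPKM (Cd8a), 0.745 FPKM (Lck) and 0.821 FPKM (Trac, r = -0.32 with the striatal index described below).

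**Figure D2:**
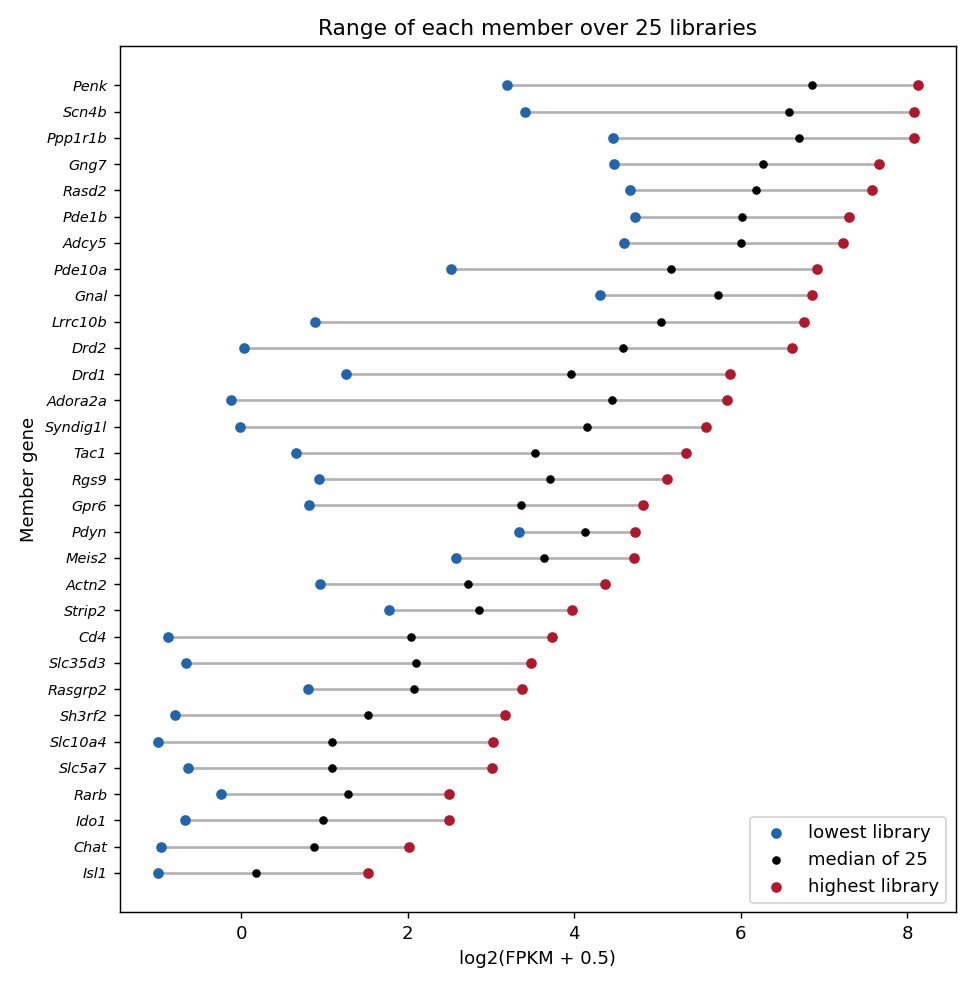
Lowest, median and highest library of each member on the log2(FPKM + 0.5) scale, 25 libraries, most abundant at the top. Drd2, Adora2a, Lrrc10b and Syndig1l span the widest ranges and Pdyn the narrowest.

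To place each mouse on 1 scale, a striatal index was formed as the mean log2(FPKM + 0.5), centred per gene, of 12 members: Drd1, Drd2, Adora2a, Penk, Tac1, Ppp1r1b, Pde10a, Rgs9, Rasd2, Adcy5, Gpr6 and Syndig1l. In WT_Veh mice 1 to 5 the index was -0.50, 1.14, -0.34, 1.85 and 1.27, and in WT_HighP mice it was 1.53, 1.10, 0.98, -1.07 and -0.59. AD_Veh mice had -0.23, 1.01, 0.36, 0.89 and 0.85, AD_LowP mice 0.83, 0.80, -0.38, -1.16 and -2.49, and AD_HighP mice -2.12, -1.004, 0.53, -2.42 and -0.83. The AD_Veh mice were the most alike (SD 0.51, n = 5) and the AD_LowP mice the least (SD 1.40, n = 5). Group means were 0.68 and 0.39 in wild-type mice on vehicle and high dose, and 0.58, -0.48 and -1.17 in 5xFAD mice on vehicle, low and high dose. No p-value is given for the index, since its genes were chosen for how they move.

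The 31 genes together took 1.01% of assigned reads in WT_Veh mouse 4 (95% Wilson interval 1.00% to 1.01%) and 0.110% in AD_LowP mouse 5 (0.108% to 0.112%), the highest and lowest libraries. Such intervals cover counting error only. Group means of this share were 0.556% ± 0.322, 0.475% ± 0.258, 0.467% ± 0.124, 0.323% ± 0.206 and 0.219% ± 0.133 in the order of groups used above (mean ± SD, n = 5 mice each). WT_Veh mouse 4 was the highest library for 24 members, WT_HighP mouse 1 for 6 and AD_Veh mouse 4 for Pdyn. AD_LowP mouse 5 was the lowest for 15 members, AD_HighP mouse 4 for 10 and AD_HighP mouse 1 for 4.

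**Figure D3:**
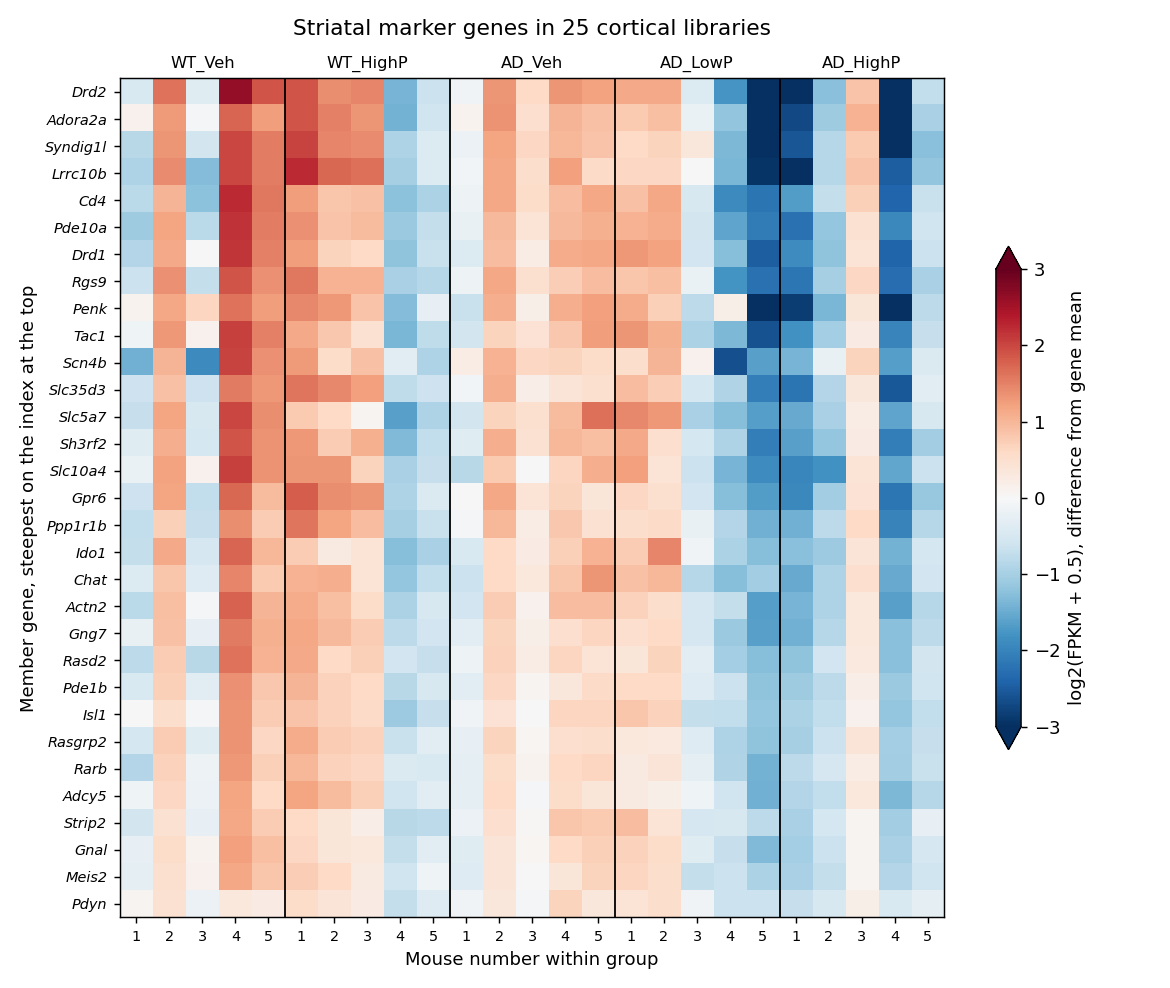
Each row is a member and each column a mouse; colour is log2(FPKM + 0.5) minus the gene's mean over 25 libraries, drawn to at most 3 in either direction. Columns change colour as a whole, from WT_Veh mouse 4 (highest) to AD_LowP mouse 5 and AD_HighP mice 1 and 4 (lowest).

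Within groups, after the group mean of each gene was subtracted, members correlated with the index at 0.867 (Scn4b) to 0.984 (Drd2), with a median of 0.962 over 25 libraries; an index gene's own value was left out of its index. Between members, Pearson's r ranged from 0.616 for Penk with Scn4b to 0.990 for Pde1b with Gng7, with a median of 0.934, and 344 of 465 pairs (74.0%) reached 0.9. Since the members were chosen for this covariation, these values describe its tightness and test nothing. All points share their libraries, depth and the tissue taken from each mouse. The slope differed between members, which is a description too. A unit of the index went with 1.51 units of Drd2 and 0.34 units of Pdyn on the log2 scale, so the genes moved in step but by different amounts. Drd2 is itself 1 of the index genes, and slopes also depend on the 0.5 FPKM added before the logarithm.

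Departures from the common course were concentrated in a few genes and mice. After the index was accounted for, Penk stood 1.57 above its course in AD_LowP mouse 4, 1.11 above in WT_Veh mouse 3 and 0.73 above in WT_Veh mouse 1 on the log2 scale, and Scn4b stood at -1.67, -1.62 and -1.02 in the same 3 mice. AD_LowP mouse 4 had 101 FPKM of Penk with 4.14 FPKM of Drd2, whereas WT_HighP mouse 4 had 36.0 FPKM of Penk with 5.47 FPKM of Drd2. Other large departures were Adora2a in AD_LowP mouse 5 (-1.04), Lrrc10b in AD_HighP mouse 1 (-1.02) and Slc5a7 in AD_Veh mouse 5 (0.93).

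Comparisons between groups were made with limma on log2(FPKM + 0.5), fitted to all 25 libraries and adjusted by the Benjamini-Hochberg method over 16450 genes, with calls at an adjusted p under 0.05. Genes of the list share their mice and move together, so a count over them is not a count of separate observations. Between AD_Veh and WT_Veh mice, the effect of the transgenes, 0 of 31 members were called, against 3.1% of all genes. None had an unadjusted p under 0.05, against 1880 of 16450 genes. Among the members 11 were higher and 20 lower, and their median log2 difference was -0.07, against -0.02 over all genes. Between WT_HighP and WT_Veh mice, the effect of the high dose in wild type, 0 members were called against 3.17% of all genes. No member had an unadjusted p under 0.05 in that comparison, against 4581 of 16450 genes. There 6 members were higher and 25 lower, with a median of -0.33.

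In 5xFAD mice, 0 members were called for the low dose against vehicle, where 0% of all genes were called. No member had an unadjusted p under 0.05, against 491 of 16450 genes. All 31 values were below 0, with a median of -0.79. The count at an unadjusted p under 0.05 was 11 without AD_LowP mouse 1, 9 without AD_LowP mouse 2 and 16 with array weights. It was 2 with only the groups compared, 1 without AD_Veh mouse 1 and 0 at every other setting. AD_LowP mice 1 and 2 had the highest index of their group, 0.83 and 0.80. Unadjusted counts over all genes were not taken at these settings. The members' median was -1.21 with array weights and -0.46 without AD_LowP mouse 5. For the high dose against vehicle 0 members were called, against 0.00608% of all genes, which is 1 gene, Mir124a-3. All 31 values were again below 0, from -2.58 ± 0.94 (SE) for Drd2 to -0.58 ± 0.25 for Pdyn, with a median of -1.39. Log2 differences were -2.20 ± 0.83 for Adora2a, -2.16 ± 0.71 for Penk, -1.75 ± 0.68 for Drd1, -1.58 ± 0.65 for Tac1 and -1.39 ± 0.53 for Ppp1r1b (SE, 5 against 5 mice). Every member had a limma adjusted p of 0.78. Without adjustment, 30 members passed 0.05, all lower and all but Scn4b, against 3.47% of all genes that were lower at that level. These differences share the AD_Veh mice with those of the low dose.

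For 0 members the levels of AD_HighP and AD_Veh mice did not overlap, against 1.35% of all genes. For 28 members, at least 4 of 5 AD_HighP mice lay below the lowest AD_Veh mouse, against 4.24% of genes, and the other 3 were the cholinergic genes Chat, Slc5a7 and Slc10a4. The count at an unadjusted p under 0.05 rested on single libraries: it was 13 without AD_HighP mouse 4, 15 without AD_HighP mouse 1, 17 without AD_Veh mouse 5 and 31 without AD_HighP mouse 3. Without the 4 libraries with high Ttr, which include AD_HighP mice 1 and 4, it was 0 and the median was -0.84. Unadjusted counts over all genes were not taken for these subsets of libraries. The part of choroid plexus tissue in these values was not tested; in the wild-type mice, Ttr was high in WT_HighP mice 1 and 2, whose index was the highest of their group.

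Between the 2 doses in 5xFAD mice 0 members were called (0% of all genes). No member had an unadjusted p under 0.05, against 1019 of 16450 genes, and the members' median was -0.57. That median was -0.07 without the libraries with high Ttr, 0.04 with array weights and between -0.90 and -0.26 on leaving out 1 library, lowest without AD_LowP mouse 5 and highest without AD_LowP mouse 1. The interaction, the high-dose effect in 5xFAD minus that in wild type, called 0 members (0% of all genes). Its median was -0.97, and 2 members were lower at an unadjusted p under 0.05, against 3.29% of all genes. Leaving out 1 library of its 4 groups moved the count in either direction from 0 (without any 1 of 9 libraries, among them WT_Veh mouse 1 and AD_HighP mouse 4) to 10 (without AD_HighP mouse 3). Without the libraries with high Ttr it was 0 and the median 0.01. Here too, unadjusted counts over all genes were not taken. In comparisons of 5 with 5 mice the members' SEs had a median of 0.59 on the log2 scale, against 0.15 for all genes.

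**Figure D4:**
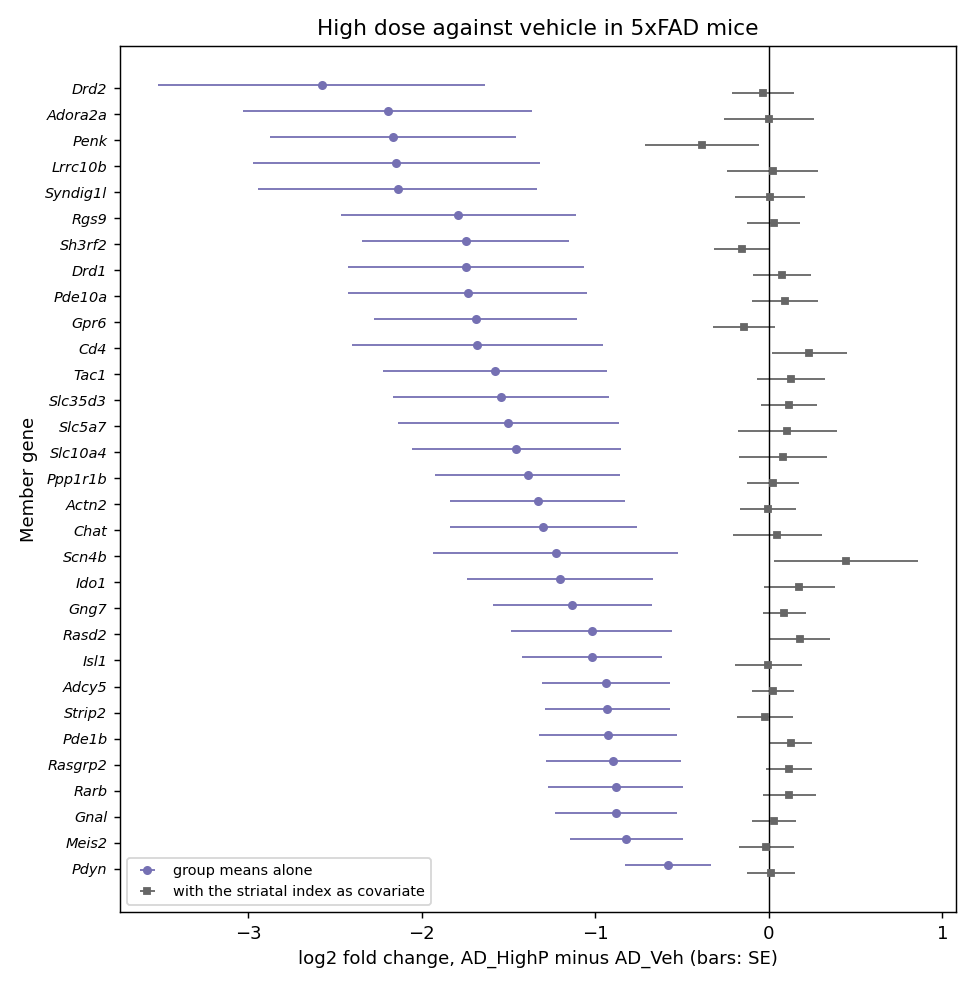
Log2 difference of each member between AD_HighP and AD_Veh mice with its SE, from group means alone (circles) and with the striatal index of each mouse in the model (squares). The circles run from -2.58 for Drd2 to -0.58 for Pdyn; the squares lie near 0, which for the 12 index genes follows from the way the index is built.

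With the index of each mouse as a covariate, the high-dose difference of the members in 5xFAD mice had a median of 0.03, and 0 members had an unadjusted p under 0.05. The 19 members outside the index were also taken for their covariation, so this is no independent result. Between WT_HighP and WT_Veh mice, 10 of 31 members passed an unadjusted 0.05 in that model, against 28.2% of all genes. The count lies close to that share and is not read as a result about the members. Of the 10, 5 were higher (Lrrc10b, Gpr6, Syndig1l, Ppp1r1b and Slc35d3, log2 differences 0.35 to 0.66) and 5 lower (Tac1, Slc5a7, Ido1, Drd1 and Gnal, -0.64 to -0.30). The counts were 2 between AD_Veh and WT_Veh mice, against 2064 of 16450 genes, and 3 for the interaction, against 2646 of 16450 genes. Neither count is read as a result about the members. Tac1 was the only member called in any comparison of that model. It was lower in WT_HighP than in WT_Veh mice at the same index, by a log2 difference of -0.64 ± 0.17 (SE, limma adjusted p = 0.0383), where 5.69% of all genes were called. Its level without the covariate differed by -0.92 ± 0.65 (limma adjusted p = 0.36), and Tac1 is itself 1 of the index genes.

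The covariate also moved calls among other genes. In WT_HighP against WT_Veh mice, 522 genes were called without it and 936 with it, including all 522. That comparison itself depended on single libraries, with 0 genes called without WT_Veh mouse 5 or WT_HighP mouse 3 and 2724 without WT_Veh mouse 1. In AD_Veh against WT_Veh mice the counts were 510 and 546, with 506 shared. In the 5xFAD dose comparisons no more than 1 gene was called either way.

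Genes outside the list followed the index too. Of 16419 tested genes that are not members, 343 (2.09%) correlated with it at 0.7 or more within groups and 210 (1.28%) at -0.7 or less, over 25 libraries. Serpina9 correlated at 0.98 and ranged from 0.0315 to 6.41 FPKM. Other genes at the high end were the retinoid receptor gene Rxrg, the synaptic vesicle gene Sv2c, Rem2, Nexn, Dach1, the serotonin receptor gene Htr1d, Cacng4, the homeobox genes Six3 and Dlx6, and Zswim6, all at 0.93 or above. At the other end stood N4bp2l1 at -0.87, Tox, Adgra1, Cabp7 and the potassium channel gene Kcnc4 at -0.85. Shared function is not implied by such values.

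**Figure D5:**
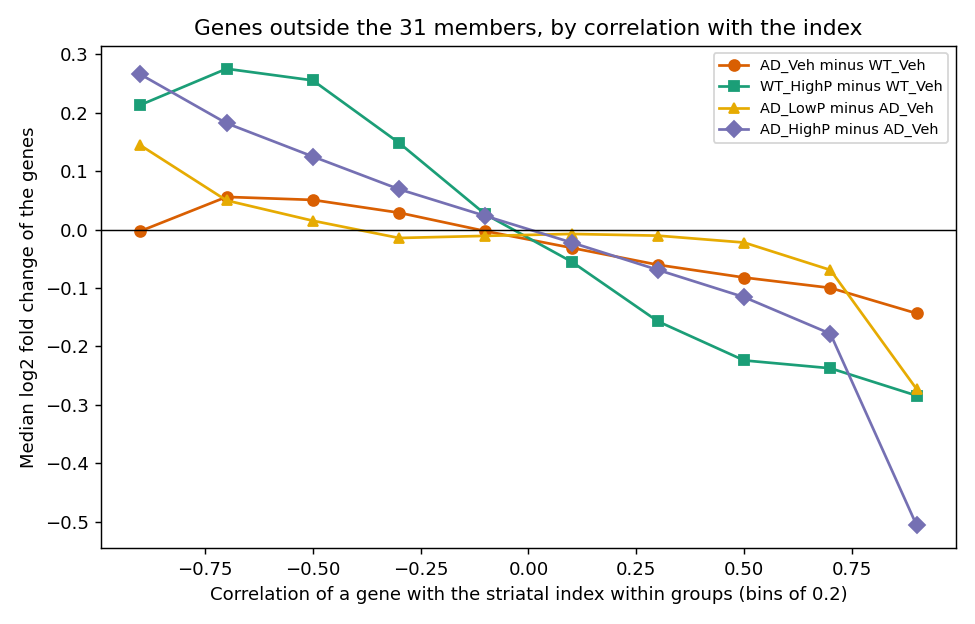
Median log2 difference of genes outside the list (vertical) by their correlation with the striatal index within groups (horizontal, bins of 0.2) in 4 comparisons. For AD_HighP minus AD_Veh it runs from 0.27 in the 25 genes at -0.8 or below to -0.51 in the 158 genes at 0.8 or above.

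Differences between groups went along with these correlations. For the high dose in 5xFAD mice the median was -0.51 in the 158 genes correlated at 0.8 or more, of which 99.4% were lower in AD_HighP mice, and 0.27 in the 25 genes at -0.8 or less, of which 0% were. The same bins had medians of -0.28 and 0.21 between WT_HighP and WT_Veh mice, -0.27 and 0.14 for the low dose in 5xFAD mice and -0.14 and -0.003 between AD_Veh and WT_Veh mice. Between WT_HighP and WT_Veh mice, weaker bins had medians of similar size, 0.26 at -0.6 to -0.4 and -0.22 at 0.4 to 0.6. The slope of values on GC content also separated these 2 groups. Per 10 GC points it was 0.098 to 0.232 log2 units in WT_HighP mice and -0.291 to 0.073 in WT_Veh mice. Its part in the medians was not tested. Correlations were taken within groups, so the group means did not enter them. Group means of the index were 0.58 in AD_Veh, -0.48 in AD_LowP and -1.17 in AD_HighP mice, and 0.68 in WT_Veh and 0.39 in WT_HighP mice. The part of the index in the differences of these genes was not tested. The medians are a description and no independent result.

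A list of 30 other striatal genes had 29 in the table and 27 tested. Of these, 19 correlated with the index at 0.7 or more, and the list's mean did so at 0.98. Rxrg ranged from 0.807 to 51.8 FPKM and Foxp2 from 0.866 to 5.29 FPKM, while Eya1, Grik3 and Plk5 hardly followed it (-0.01, 0.21 and 0.18). The list was chosen with earlier results of these data known, and its genes share their mice, so its correlations and counts are descriptions. None of the 27 was called in any comparison. Most were lower in all 4 comparisons with vehicle: 26 in AD_Veh against WT_Veh mice (median log2 difference -0.18, 53.9% of all genes lower), 22 in WT_HighP against WT_Veh mice (-0.28, 49.9%), 25 for the low dose in 5xFAD mice (-0.33, 53.2%) and 26 for the high dose (-0.51, 49.4%). Downstream of the receptors, 11 of 20 genes of dopamine and cyclic AMP signalling correlated at 0.7 or more. Pde7b, another phosphodiesterase, led them at 0.92, with Ppp1ca, a catalytic subunit of the phosphatase that DARPP-32 inhibits, at 0.87. Gnas, the stimulatory G protein gene used in most other brain regions, was at -0.65 where Gnal was among the members. Of the 20, only Gnas was called in any comparison, higher in WT_HighP than in WT_Veh mice (limma, adjusted p under 0.05), where 3.17% of all genes were called. That call was lost without WT_Veh mouse 4 or 5, WT_HighP mouse 1 or 3, the libraries with high Ttr or the filter on low values, where 0 genes were called higher.

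Markers of neighbouring tissue moved unevenly with the index. For cortical excitatory neurons, 18 of 18 markers were tested, their list correlated at -0.55 with the index and summed to 327 to 618 FPKM. Fezf2, a layer 5 factor, was at -0.79, and Syt6, a layer 6 gene, at 0.92. Septal, pallidal and basal forebrain genes correlated at 0.75 as a list of 7 tested, and Lhx8, a factor of cholinergic neuron development, ranged from 0 to 2.64 FPKM. Hippocampal genes were at -0.72 (6 tested). Choroid plexus was at -0.07 (8 tested), ependyma at 0.02 (7), thalamus at 0.02 (9), oligodendrocytes at 0.40 (10) and microglia at 0.09 (10). Of 6 midbrain monoaminergic markers 4 were tested, and their list was at 0.25. Th, the enzyme that starts dopamine synthesis, correlated at 0.53 and ranged from 0.0944 to 1.66 FPKM, while Slc6a3, the dopamine transporter, stayed under 0.5 FPKM in all libraries. The part that these tissues play in the members' values was not tested.

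Other measures of each library were set against the index without subtracting group means, unlike the correlations above. Slc17a7 correlated with the index at -0.66 over 25 libraries (-0.73 without the 2 mice farthest from the median). The share of mitochondrially encoded reads did so at 0.57 (0.58). The dependence of values on GC content correlated at -0.46, assigned reads at 0.22, Mbp, a myelin gene, at 0.16 and Ttr at -0.15. Within groups, in the same order, the values were -0.69, 0.60, -0.56, 0.32, 0.21 and -0.11. These 6 relations are descriptions without a p, and their part in the members' values was not tested.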

How the data were processed

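Poly(A)-selected, strand-specific libraries of 25 mice were sequenced, per the labels' protocols. The submitters aligned reads with HISAT2 to mm10, per the submitters' processing notes; the sources used here do not give its version, the counting tool or the annotation. The authors deposited FPKM values for 54532 genes. FPKM times gene length came in whole steps of 1 read for 100% of values (tolerance 0.01), so reads were recovered, 15518358 to 17698222 per library; duplicates cannot be recognised. The 16450 genes reaching 0.5 FPKM in 5 or more libraries were tested on log2(FPKM + 0.5), a scale that understates changes of low genes, with limma 3.58.1 in R 4.3.3: group means over all 25 libraries, 20 residual degrees of freedom, trended moderated variances, two-sided, Benjamini-Hochberg adjustment within each of 6 contrasts. The fit was checked on simulated data. Members, index and gene lists were chosen with earlier results of these data known. Values per mouse were given for Drd1, Drd2, Ppp1r1b, Penk, Adora2a and Tac1, and genes outside the list were named as the 12 highest and 5 lowest correlations with the index (mean at least 1 FPKM, no unnamed models or pseudogenes; 1 of the 12 is not reported here). GC content came from GENCODE transcripts, promoters from RefSeq. Alternatives were other pseudocounts, filters, scaling, weights, samples, a GC correction, a covariate and voom.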

Additional observations from a re-analysis of the deposited data

Results flagged for a closer look

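In 13 of 155 sets of 1 member in 1 group of 5 mice, 1 mouse stood apart by Dixon's criterion, applied to FPKM and not to log2 values. It was AD_HighP mouse 3 in all 13, the highest of its group: Adora2a (31.4 FPKM), Gpr6 (10.2 FPKM), Ppp1r1b (134 FPKM), Rgs9 (13.9 FPKM), Rasgrp2 (4.81 FPKM), Adcy5 (80.8 FPKM), Gng7 (84.2 FPKM), Syndig1l (19.6 FPKM), Lrrc10b (41.3 FPKM), Sh3rf2 (2.37 FPKM), Isl1 (0.723 FPKM), Actn2 (7.04 FPKM) and Meis2 (11.9 FPKM). These members move together, so the 13 are not separate observations. The chance rate of the criterion, about 1 of 20 sets, holds for normally distributed values, so the count of 13 is not compared with it. The other 4 AD_HighP mice reached at most 7.41 FPKM of Adora2a and 50.9 FPKM of Ppp1r1b. The index of AD_HighP mouse 3 was 0.53, inside the range of the AD_Veh mice. On that log2 scale the other 4 AD_HighP mice ran from -2.42 to -0.83.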

How the results depend on the processing

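No member was called in any of the 6 comparisons under any setting without the index as covariate. Those were pseudocounts of 0.1 and 1, a 1 FPKM filter, no filter, TMM scaling, only the groups compared, array weights, GC correction, voom on recovered reads, no high-Ttr libraries, and leave-one-out (0 to 0). Leave-one-out medians of the members ran from -1.76 to -1.15 for AD_HighP against AD_Veh, -1.11 to -0.46 for AD_LowP against AD_Veh, -0.90 to -0.26 for AD_HighP against AD_LowP, -0.56 to -0.01 for WT_HighP against WT_Veh, -0.36 to 0.19 for AD_Veh against WT_Veh and -1.29 to -0.67 for the interaction. Without the high-Ttr libraries the median was -0.84 for AD_HighP against AD_Veh, -0.81 for WT_HighP against WT_Veh, -0.07 for AD_HighP against AD_LowP and 0.01 for the interaction. Array weights gave 0.04 for AD_HighP against AD_LowP. Members' median correlation with the index stayed between 0.957 and 0.971 over 30 settings. With the index as covariate, 936 genes were called in place of 522 in WT_HighP against WT_Veh mice and 0 in place of 1 in AD_HighP against AD_Veh mice; the cause was not tested. The first count was 22 after GC correction.

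The replicate block called 0 members and 218 genes for WT_HighP against WT_Veh. Correlations of same-numbered mice across groups were -0.38 to 0.27 (median 0.021 over 50 pairs), against -0.32 to 0.39 (median 0.009) over 200 other pairs. The labels do not say that the numbers pair mice. Correlations over all genes cannot decide it, since differences in the tissue taken enter them too. edgeR and DESeq2 on recovered reads were planned and not run. At this depth Drd2 still had 23 reads in its lowest library, so counting error limits Chat, Isl1 and Slc10a4 more than the receptors.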

Other observations

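Penk and Scn4b departed from the index in opposite directions, with r = -0.93 (rho = -0.84) between their departures over 25 libraries, a pair chosen after its values were seen. The difference between them was largest in AD_LowP mouse 4 (3.24 on the log2 scale), WT_Veh mouse 3 (2.73) and WT_Veh mouse 1 (1.75), and between -1.13 (AD_HighP mouse 4) and 0.87 in the other 22 mice. Departures of Rgs9 (-0.86), Rasd2 (-0.82), Cd4 (-0.80) and Pde10a (-0.65) correlated negatively with this difference, Penk minus Scn4b. Outside the list, Bmp3 (0.86), Hpcal4 (0.85), Spon1 (0.84) and Nr2f2 (0.82) were among the highest correlations with the difference. Syt2 (-0.86) and the myelin gene Mog (-0.79) were among the lowest. Levels of genes outside the list were not adjusted for the index here, and correlations with Penk or Scn4b alone were not taken. As lists, claustrum and amygdala genes correlated with the difference at 0.73 (rho = 0.87, 6 genes) and oligodendrocyte genes at -0.79 (rho = -0.62, 10 genes). These are descriptions that rest largely on 3 mice.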
